A study of Mus musculus with 12 samples.

Results

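Genes that move chloride, sodium and potassium across epithelia were examined in the anterior prostate of APT121 and wild type male mice. The set holds 10 of the 19935 genes of the array table: the cotransporter gene Slc12a2, the sodium channel genes Scnn1a, Scnn1b and Scnn1g, the pump modulator gene Fxyd3, the potassium channel genes Kcnma1, Lrrc26 and Kcnk5, and Gabrp and Ano9. They were chosen by their log2 difference between APT121 and wild type in these same arrays, so the difference between genotypes is given for each of them as a description, with no p-value. Both groups were 12-week-old males of genotype B6D2F3, a mixed background of C57BL/6J and DBA/2 in its F3 generation, on the semi-purified AIN93G diet from 3 weeks of age. The APT121 samples are labelled PIN lesion (prostatic intraepithelial neoplasia) and the wild type samples normal. In APT121 mice the probasin promoter, active in prostate epithelium, drives T121, a truncated SV40 T antigen that binds and inactivates pRb and its relatives. Each array read RNA pooled from 2 mice, which gave 4 APT121 arrays from 8 mice and 8 wild type arrays from 16 mice. Levels are log2 of the RMA intensity, and differences are APT121 minus wild type on that scale ± SE.

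Secretory epithelia load chloride through the basolateral Na-K-2Cl cotransporter, let it out through apical chloride channels, and keep the driving force with potassium channels and the sodium pump. Sodium is taken back through the epithelial sodium channel ENaC, an apical channel built from alpha, beta and gamma subunits. The BK channel is a potassium channel opened by calcium and voltage, and its auxiliary gamma subunits let it open at resting voltage in gland cells that lack high calcium. Prostate fluid is made by such an epithelium.

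Of the 10 genes, 9 were higher in APT121, and 1, Scnn1g, read at background level in both groups. For those 9 no wild type array reached the lowest APT121 array, which was so for 17.7% of all genes. The same 9 are among the genes that limma's fit called higher at an adjusted p of 0.05, which were 22.8% of all genes (52.8% in either direction), and for the 10 this count tests nothing. A difference of at least 3 log2 units (8-fold) was reached by 7 of the 10 and by 0.652% of all genes. The median difference was 4.02 for the 10 and -0.09 for all genes. Nothing is read from these counts, since the same contrast was known when the genes were picked. In whole tissue, a rise of a transcript per cell and a larger share of the cells that hold it cannot be told apart.

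**Figure D1:**
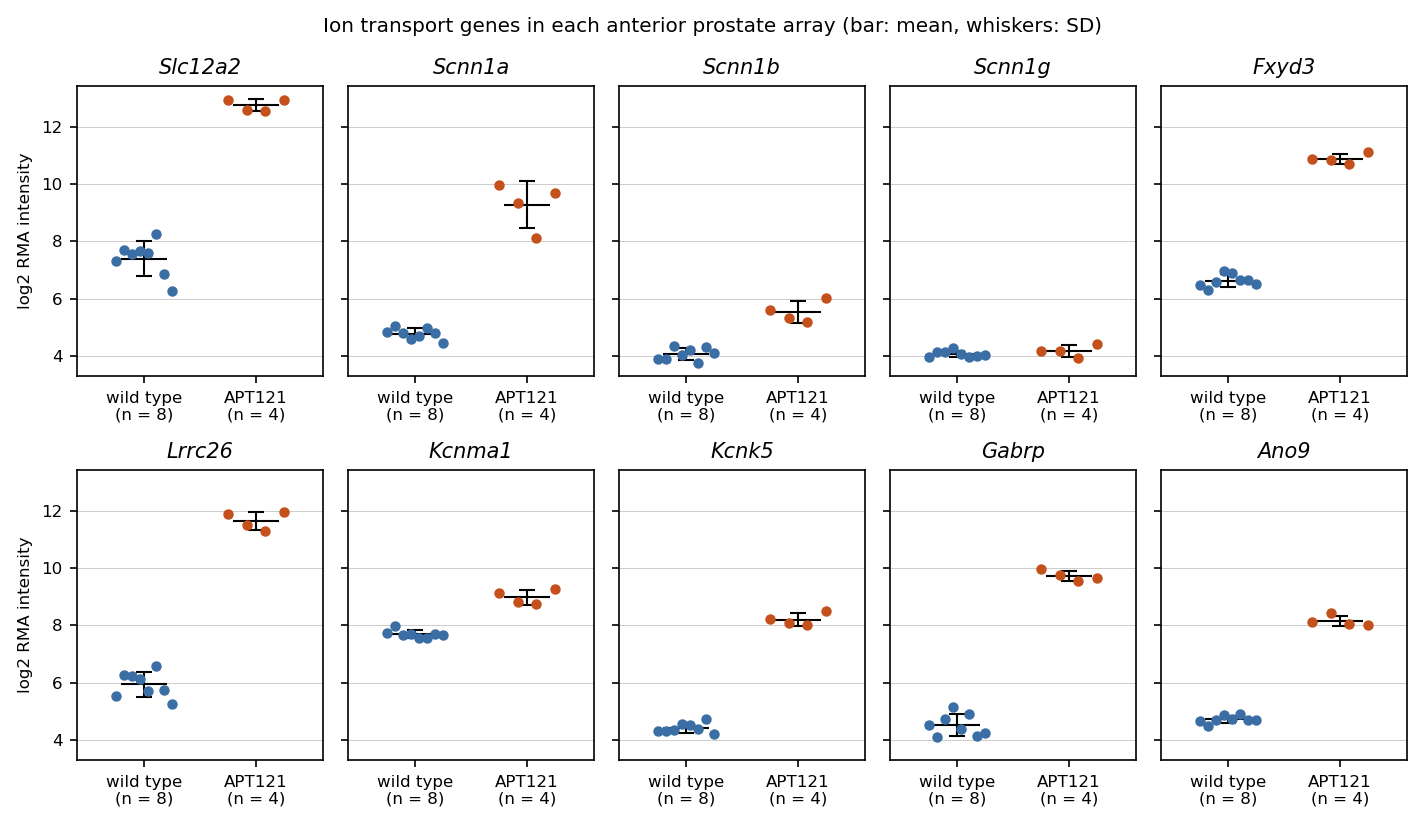
Log2 RMA intensity of each gene in the 8 wild type arrays (blue) and the 4 APT121 arrays (orange), with the mean as a bar and the SD as whiskers. Scnn1g is the panel in which the groups overlap, and levels of different genes are not comparable because each has its own probes.

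Some wild type levels were close to the floor of the arrays. Clusters of 1027 olfactory receptor genes, whose transcripts are not expected in prostate, read a median of 2.87, and 97.5% of their values were at or below 4.49. All wild type values of Scnn1b and Scnn1g and all APT121 values of Scnn1g lay below that level, and the wild type medians of Kcnk5 and Gabrp did too. Folds against such values are of measured intensities and may understate the change in transcript. Of the 141 other transport genes described below, 46 lay below 4.49 in all 12 arrays. Of the 44 called lower, 18 had both group means below it, and for these a lower reading is not shown to be a fall of transcript. None of the 34 called higher was of this kind.

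Slc12a2 (transcript cluster 10455873) encodes the Na-K-2Cl cotransporter NKCC1, the chloride entry step. In wild type its level was lowest at 6.25, with a median of 7.58 and a highest value of 8.25. The APT121 arrays 1 to 4 read 12.94, 12.60, 12.56 and 12.95. The groups were 4.31 apart at their nearest values. The mean was 12.76 ± 0.21 (SD, n = 4) in APT121 and 7.40 ± 0.60 (SD, n = 8) in wild type, a difference of 5.36 ± 0.26 (41.2-fold). Among all genes this rise had rank 7. The wild type spread came mostly from arrays 8 (6.25), 7 (6.87) and 6 (8.25), whereas the other 5 lay between 7.30 and 7.70.

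Of the ENaC genes, Scnn1a and Scnn1b were higher in APT121 by different amounts, and Scnn1g could not be read above background. Scnn1a (10541885), the alpha subunit that the channel cannot do without, read 4.45 to 5.05 in wild type with a median of 4.80. The APT121 arrays 1 to 4 read 9.98, 9.34, 8.12 and 9.70, so array 3 was 1.22 below the next. The difference was 4.52 ± 0.24 (22.9-fold). Scnn1b (10557124), the beta subunit, read 3.75 to 4.35 in wild type with a median of 4.07. Its APT121 arrays read 5.59, 5.33, 5.18 and 6.03, all above wild type by at least 0.83, and the difference was 1.46 ± 0.14 (2.76-fold). Scnn1g (10557111), the gamma subunit, read 3.96 to 4.26 in wild type with a median of 4.05, and 4.16, 4.16, 3.91 and 4.40 in APT121. Its groups overlapped, APT121 array 3 lying below every wild type array and array 4 above every one. The difference was 0.09 ± 0.09, with a 95% interval of -0.09 to 0.27. All 12 values lie below 4.49, so they do not show whether the gamma subunit's transcript followed those of the alpha and beta subunits. Array 3 was the lowest APT121 array for Scnn1a and Scnn1b, as it was for 9 of the 10 genes and for 29.9% of all genes. It was also the lowest for Scnn1g, at background readings from which no shared order is read. Scnn1b and Scnn1g are neighbours on chromosome 7 with a lncRNA gene, Gm36848, between them, and both lie on the plus strand.

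The sequences before the starts of Scnn1b and Scnn1g are shown because these adjoining genes encode partner subunits and their probes read differently in APT121, and that of Lrrc26 because it had the largest difference of the set. They are from RefSeq on GRCm38.p6, plus strand: chr7:121864788-121865037 for Scnn1b, chr7:121734229-121734419 for Scnn1g and chr2:25289661-25289910 for Lrrc26. Capitals mark the motif matches. For Scnn1g 191 of the 250 bases are printed, without the 59 nearest the start, which lie within the annotated span of the gene. No build is named for the array values.
Scnn1b: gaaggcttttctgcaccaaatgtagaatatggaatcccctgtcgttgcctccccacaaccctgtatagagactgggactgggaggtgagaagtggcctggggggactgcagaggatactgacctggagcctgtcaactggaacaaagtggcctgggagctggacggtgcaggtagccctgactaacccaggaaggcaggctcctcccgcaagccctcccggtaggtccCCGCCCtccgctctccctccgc
Scnn1g: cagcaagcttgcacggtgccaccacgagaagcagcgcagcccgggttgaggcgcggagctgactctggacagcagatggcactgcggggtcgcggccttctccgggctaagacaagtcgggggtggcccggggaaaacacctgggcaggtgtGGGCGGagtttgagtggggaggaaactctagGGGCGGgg
Lrrc26: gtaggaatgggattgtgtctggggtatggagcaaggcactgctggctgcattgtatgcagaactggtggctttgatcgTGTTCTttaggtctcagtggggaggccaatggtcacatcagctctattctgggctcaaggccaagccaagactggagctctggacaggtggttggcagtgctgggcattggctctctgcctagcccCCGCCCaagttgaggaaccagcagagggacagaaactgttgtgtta
A window of 250 bases before the start was found for 7 of the 10 genes and searched on both strands for 7 motifs: the TATA box (TATAAA), the GC box (GGGCGG), an E2F site (GCGGGAA), an androgen receptor half-site (AGAACA), an AP-1 site (TGAGTCA), a forkhead site (TGTTTAC) and an ETS site (CCGGAAG). The GC box was found before Scnn1b, Scnn1g, Kcnk5, Lrrc26 and Kcnma1 (5 of 7), and in 32.7% of 32851 windows of all genes. Counted from the start, and not from the end of the stretch printed, it lay at -22 in Scnn1b and at -98 and -67 in Scnn1g. GC content was 54.8% to 79.2% in the 5 windows with a GC box, and the median of all windows was 52.4%. Gabrp (49.2%) and Fxyd3 (55.2%) had no GC box. The part of GC content in the matches was not tested. The androgen receptor half-site was found before Lrrc26, at -172, and in 16.1% of all windows. The other 5 motifs had no match in the 7 windows, and 3.17% (forkhead) to 12.4% (TATA box) of all windows held one. These are matches of letters, with no evidence of binding.

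Genes that act on ENaC and on the kinases of salt transport are not in the set, and the fit's adjusted p-values over all genes are given for them. The list was made with earlier results of these arrays known, so its counts are a description. Of 17 measured, 11 rose, 0 fell and 6 did not pass, against 22.8% of all genes that rose and 30.0% that fell. The list median was 0.33, beside -0.09 for all genes. Nedd4l, the ubiquitin ligase that removes ENaC from the membrane, rose from 6.64 ± 0.19 to 10.07 ± 0.16 (difference 3.42 ± 0.10, adjusted p = 3.50e-13). Its APT121 values were 10.12, 10.11, 9.83 and 10.20, and its highest wild type value was 6.99. Wnk2, a kinase of the WNK family that sets cation-chloride cotransport, rose by 2.95 ± 0.17 (adjusted p = 4.03e-10). Tmprss4, a membrane serine protease that can activate ENaC, rose by 1.51 ± 0.15 (adjusted p = 3.27e-07).

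Smaller rises on this list were those of Hsd11b2 (1.25 ± 0.10), which shields the mineralocorticoid receptor from glucocorticoids, Usp2 (1.14 ± 0.10), a deubiquitinase, and Sgk1 (0.83 ± 0.09, adjusted p = 1.22e-06), the kinase that restrains Nedd4l. The receptor gene itself, Nr3c2, differed by -0.24 ± 0.12 (adjusted p = 0.101). Prss8, which encodes prostasin, a channel-activating protease first purified from seminal fluid, differed by -0.07 ± 0.07 (adjusted p = 0.428, 95% interval -0.21 to 0.08). Prss8 read 8.49 to 8.88 over all arrays, well above background.

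**Figure D2:**
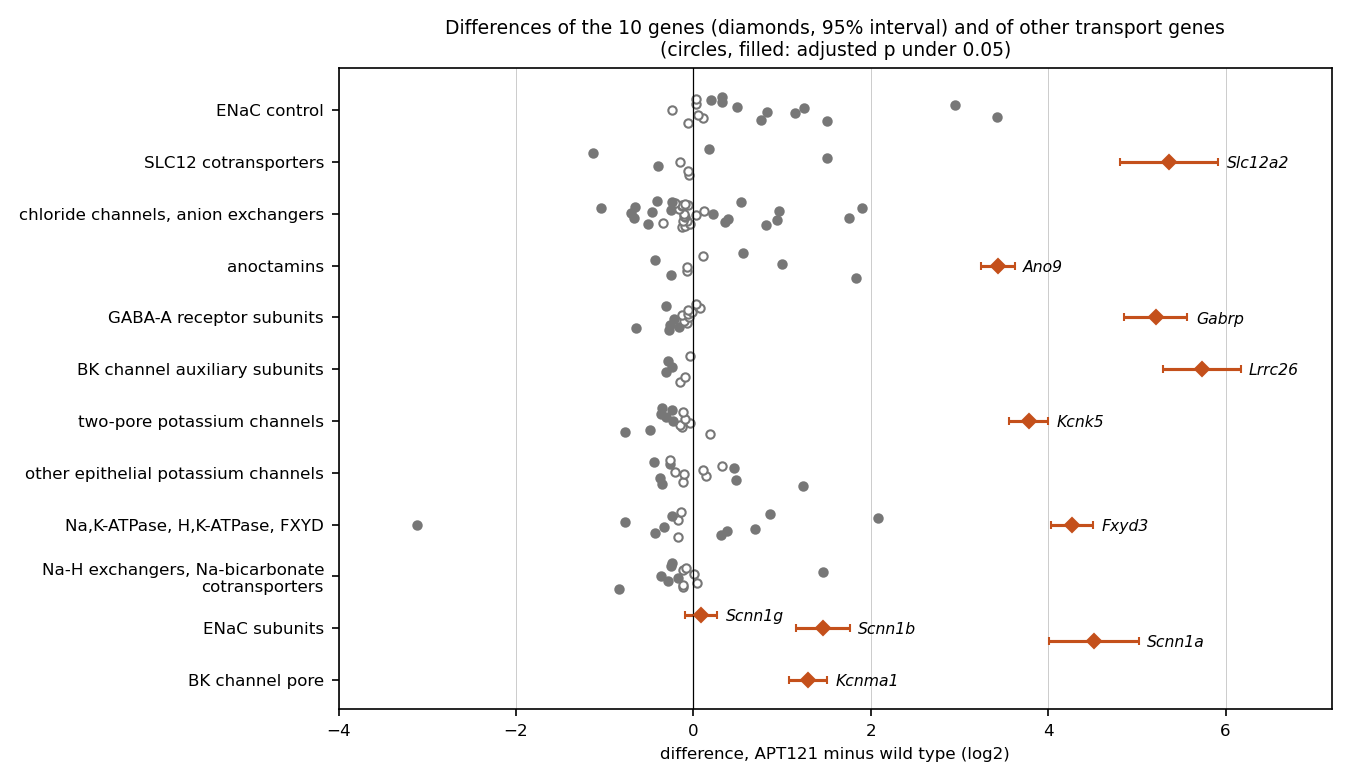
Difference in log2 intensity, APT121 minus wild type, for the 10 genes (orange diamonds with 95% intervals) and 141 other transport genes (grey circles, filled where the adjusted p was under 0.05), by family. Slc12a2, Gabrp, Lrrc26, Kcnk5, Ano9 and Fxyd3 lie to the right of every other measured gene of their families, and Scnn1g, at background level in both groups, lies at zero. The 10 genes were picked by this same difference, so their place beside their families is a description.

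Fxyd3 (10562223) encodes a small membrane protein of the FXYD family, which tunes the sodium pump. It read 6.31 to 6.97 in wild type with a median of 6.61, and 10.89, 10.85, 10.72 and 11.14 in APT121. No APT121 array came within 3.75 of a wild type array. The difference was 4.27 ± 0.11 (19.3-fold). Among 13 measured genes of the pumps and of the FXYD family, 5 rose and 5 fell, with a median of -0.17. Fxyd4, another pump modulator, rose by 2.08 ± 0.23 (adjusted p = 1.57e-06), with APT121 values of 7.00, 6.22, 5.40 and 7.17, and Fxyd6 rose by 0.86 ± 0.11. Atp1b1, the beta subunit of the sodium pump, rose by 0.32 ± 0.11 (adjusted p = 0.0220), a call lost after median centring of the arrays (0.26, adjusted p = 0.0516). It was lost as well on leaving out APT121 array 1 (difference 0.27, adjusted p = 0.0759), APT121 array 4 (difference 0.20, adjusted p = 0.111) or wild type arrays 5, 6 and 7 together (difference 0.25, adjusted p = 0.110). Atp12a, the catalytic subunit of the non-gastric proton-potassium pump, fell 8.70-fold, from 10.90 ± 0.10 to 7.78 ± 0.69 (difference -3.12 ± 0.20, adjusted p = 1.89e-09). Its APT121 arrays read 7.82, 8.22, 8.29 and 6.79, and no wild type array was below 10.75.

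Lrrc26 and Kcnma1 encode partners of the BK channel, and both were higher in APT121 by very different amounts. Kcnma1 (10418053) encodes the pore. Its wild type values ran from 7.54 to 7.98 with a median of 7.69, and its APT121 values were 9.14, 8.81, 8.73 and 9.27. The groups were 0.76 apart, and the difference was 1.29 ± 0.10 (2.45-fold). Lrrc26 (10469984), the gamma subunit that shifts the channel's opening toward resting voltage, read 5.26 to 6.60 in wild type with a median of 5.95. It read 11.89, 11.50, 11.31 and 11.96 in APT121, 4.71 or more above wild type. The difference was 5.73 ± 0.21 (53.1-fold), the rise of rank 4 among all genes, while that of Kcnma1 had rank 806. In APT121 both had the order of arrays 4, 1, 2 and 3 from high to low. Slc12a2, Scnn1b, Kcnk5 and Fxyd3 had the same order, so it is not particular to this pair. The share of all genes with this order was not computed.

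Kcnma1 alone among the 10 had a further transcript cluster (10582545). That cluster read 8.31, 7.76, 8.14 and 8.40 in APT121, so its lowest was array 2 and not array 3. In wild type it read 3.32 to 6.40, where array 8 was lowest and the next was at 5.32. Its difference was 2.48 (5.58-fold), and 2.15 without wild type array 8. The mean of both clusters gave 1.89 for Kcnma1 in place of 1.29, so the size of its rise depends on the probes.

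None of the 6 other measured auxiliary subunits of the BK channel was called higher and 3 were called lower, with a median of -0.20. Of the 6, 4 (Kcnmb2, Lrrc38, Lrrc52 and Lrrc55) read below 4.49 in all 12 arrays, and Kcnmb4 did in 10. The brain beta subunit gene Kcnmb4 (-0.30 ± 0.11, adjusted p = 0.0320) and the gamma subunit genes Lrrc52 (-0.28 ± 0.08, adjusted p = 0.00952) and Lrrc38 (-0.24 ± 0.07, adjusted p = 0.00844) were the 3 called lower, at readings that do not show a fall of transcript, and none of these calls held when quantile normalisation was repeated (adjusted p = 0.163, 0.0967 and 0.123). The call of Kcnmb4 was also lost without any one of APT121 arrays 1, 3 and 4 or wild type arrays 5 and 7 (adjusted p = 0.0533 to 0.0819), and without wild type arrays 5, 6 and 7 together (adjusted p = 0.0867). Kcnmb1, the beta subunit of smooth muscle, differed by -0.15 ± 0.17 (adjusted p = 0.454). Kcnmb2 (-0.09) and Lrrc55 (-0.03) did not pass.

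Kcnk5 (10417798) encodes TASK-2, a K2P potassium channel opened by alkaline pH and found in transporting epithelia. It read 4.21 to 4.73 in wild type with a median of 4.38, and 8.21, 8.08, 8.00 and 8.50 in APT121. The APT121 arrays were within 0.50 of each other and 3.27 or more above wild type. The difference was 3.78 ± 0.10 (13.7-fold). Of 13 other K2P channel genes, 0 were called higher and 7 lower, 3 of these at background level, with a median of -0.23. The largest differences were of Kcnk2 (TREK-1, -0.77 ± 0.13, adjusted p = 8.60e-05), Kcnk3 (TASK-1, -0.49 ± 0.08) and Kcnk13 (-0.36 ± 0.09). Among 14 further potassium channel and subunit genes, not all of them epithelial, 3 rose. Called lower were 4 (Kcne1, Kcne4, Kcnt1 and Kcnu1), 2 of these at background level. Kcnq1, the pore of a basolateral potassium channel of many epithelia, rose by 1.24 ± 0.14 (adjusted p = 1.19e-06), its partner subunit gene Kcne3 by 0.48 ± 0.14 (adjusted p = 0.00736) and Kcnj15 by 0.46 ± 0.13 (adjusted p = 0.00883). Kcne3 read below 4.49 in 7 wild type and 2 APT121 arrays, and Kcnj15 in 5 wild type arrays. For both genes the groups overlapped.

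Gabrp (10385083) encodes the pi subunit of GABA-A receptors, which are chloride channels, and is known from epithelia outside the brain. It read 4.10 to 5.13 in wild type with a median of 4.44, and 9.96, 9.77, 9.54 and 9.65 in APT121. The groups were 4.40 apart, and the difference was 5.21 ± 0.17 (37.1-fold, rank 9). None of the 15 other measured GABA-A subunit genes was called higher, and 12 of them read below 4.49 in all 12 arrays. The 6 called lower had both group means below that level, so no fall of transcript is shown for them, among them Gabra3 (-0.65 ± 0.13, adjusted p = 4.68e-04), Gabrr2 (-0.31 ± 0.08) and Gabra2 (-0.27 ± 0.07). The call of Gabra2 was lost when quantile normalisation was repeated (adjusted p = 0.0779).

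Ano9 (10569038) belongs to the anoctamins, a family of calcium-activated chloride channels and lipid scramblases. It read 4.49 to 4.91 in wild type with a median of 4.69, and 8.14, 8.42, 8.03 and 8.02 in APT121. The groups were 3.11 apart, and the difference was 3.44 ± 0.09 (10.8-fold). Of the 8 other anoctamin genes 3 rose and 2 were called lower, both at background level. Ano1, the calcium-activated chloride channel of secretory cells, rose by 1.83 ± 0.14 (adjusted p = 2.54e-08) to APT121 values of 10.07, 9.75, 9.30 and 10.38. The scramblase gene Ano6 rose by 1.00 ± 0.11 (adjusted p = 1.59e-06) and Ano10 by 0.56 ± 0.10.

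The remaining anion genes were mixed. Cftr, the cyclic AMP-gated chloride channel, differed by -0.13 ± 0.10 (adjusted p = 0.261) and read below 4.49 in all 12 arrays. Among 35 measured chloride channels and anion exchangers 9 rose and 9 were called lower, 1 of these at background level, with a median of -0.10. Slc26a4, the exchanger pendrin, rose by 1.90 ± 0.23 (adjusted p = 4.30e-06) and Clic4 by 1.75 ± 0.07, while Slc26a3, a chloride-bicarbonate exchanger, fell by 1.04 on the log2 scale. Of the 7 other SLC12 genes 2 rose and 2 fell. Slc12a7, the potassium-chloride cotransporter KCC4, rose by 1.51 ± 0.09 (adjusted p = 5.05e-10), Slc12a8 fell by 1.13, and Slc12a4 (KCC1) fell by 0.40. Among 13 sodium-proton exchanger and sodium-bicarbonate cotransporter genes 1 rose, Slc4a4 (1.46 ± 0.15, adjusted p = 7.13e-07), and 6 were called lower, 1 of these at background level, of which Slc9a2 (-0.83 ± 0.13) and Slc9a9 (-0.36 ± 0.07) had the largest differences. Over all lists, 34 of 141 measured genes rose (24.1%) and 44 were called lower (31.2%), close to the shares over all genes.

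Within APT121 most of the genes shared their lowest and their highest array. Array 3 was the lowest of the 4 for 9 of the 10 genes, all but Ano9, and array 4 was the highest for 7. Both counts include Scnn1g, whose background readings do not show an order. Scnn1a and Gabrp were highest in array 1 and Ano9 in array 2. Array 3 was the lowest for 29.9% of all genes and for 48.6% of the 1147 genes that were at least 1 log2 unit higher in APT121. Array 4 was the highest for 29.3% of all genes and for 35.7% of those 1147. Array 3 also had the highest summed intensities, on the log2 scale, of smooth muscle (13.25), fibroblast (11.66) and myeloid (10.31) markers in APT121 and the lowest of luminal markers (14.26). Array 4 had the lowest sums of the former 3 lists (12.85, 10.91 and 9.21) and the highest of luminal markers (14.32). The part of these marker levels in the shared lowest and highest arrays was not tested. Within wild type no array was lowest for more than 4 of the 10 (array 8, for Slc12a2, Scnn1a, Kcnk5 and Lrrc26). Wild type array 8 was the lowest for 13.6% of all genes. A lowest of 8 arrays is not comparable with a lowest of 4. With 4 APT121 arrays no correlation was computed in that group.

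The spread within wild type, which was not used to pick the genes, was tested for links between partners over 8 arrays. Scnn1a and Scnn1b gave a Pearson's r of -0.40 (exact permutation p = 0.333) and a Spearman's rho of -0.50 (p = 0.216, exact permutation). Scnn1a and Scnn1g gave r = -0.20 (exact permutation p = 0.632) and rho = -0.40 (p = 0.327, exact permutation), and Scnn1b and Scnn1g r = 0.27 (exact permutation p = 0.514) and rho = 0.48 (p = 0.243, exact permutation). Lrrc26 and Kcnma1 gave r = 0.08 (exact permutation p = 0.860) and rho = -0.05 (p = 0.935, exact permutation).

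Kcnma1 was set beside its smooth muscle partner Kcnmb1 (r = 0.25, exact permutation p = 0.544, and rho = 0.64, p = 0.0962) and beside the mean of 12 smooth muscle markers (r = 0.29, exact permutation p = 0.517, and rho = 0.29, p = 0.501). Of these 6 relations 0 passed, and 0 had an unadjusted exact permutation p under 0.05, two-sided. The lowest p adjusted over the 6 was 0.758 for r and 0.486 for rho. Without the 2 arrays farthest from the median of the first gene, r was -0.41, -0.84, -0.19, 0.45, 0.45 and -0.23 in the order given, over 6 arrays. The narrow wild type spread of the ENaC genes (SD 0.19, 0.21 and 0.10) and of Kcnma1 (SD 0.13) bounds what such a test can find, and all wild type values of Scnn1b and Scnn1g lie below 4.49, so that their correlation is one of background readings. Links between partners were not detectable here and are not shown to be absent.

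Over all 45 pairs of the 10 genes in wild type, a family added after the data were seen, r ran from -0.75 to 0.87. None passed after adjustment over the 45 (lowest adjusted exact permutation p = 0.173 for r and 0.100 for rho), and 4 had an unadjusted p under 0.05 for r and 3 for rho. The highest rho was that of Ano9 and Fxyd3 (rho = 0.93, exact permutation p = 0.00223, adjusted p = 0.100, and r = 0.75, p = 0.0297). The highest r was that of Slc12a2 and Lrrc26 (r = 0.87, exact permutation p = 0.00384, and rho = 0.83, p = 0.0154, adjusted p = 0.346 for rho). Their r was 0.84 without wild type arrays 7 and 8. Array 6, the wild type pool with seminal vesicle transcripts, was the highest and array 8 the lowest for both genes. Without array 6 r was 0.80 over 7 arrays. The lowest was that of Ano9 and Kcnma1 (r = -0.75, exact permutation p = 0.0360, and rho = -0.69, p = 0.0694), and it was -0.05 without wild type arrays 2 and 6, so it rests on those arrays.

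**Figure D3:**
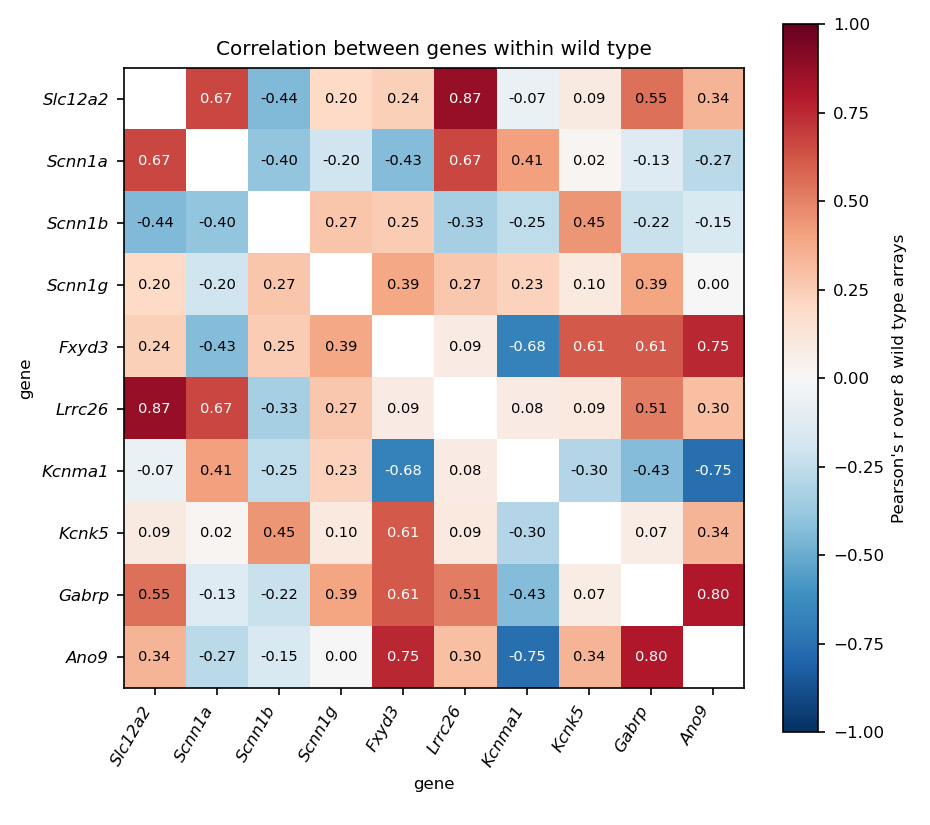
Pearson's r between each pair of the 10 genes over the 8 wild type arrays, from -1 (blue) to 1 (red). The ENaC pairs (-0.40, -0.20 and 0.27) and Lrrc26 with Kcnma1 (0.08) are pale, and Slc12a2 with Lrrc26 (0.87) is the darkest.

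The genes whose deviations from their genotype's mean most resembled those of each of the 10, over all 12 arrays and 19934 genes searched, were not other genes of the set. For Scnn1a they were Rxra and Ripk4 (both r = 0.96), for Kcnma1 Rasa2 (r = 0.95) and Abca3 (r = 0.93), and for Lrrc26 Olfr811 (r = 0.93) and Gna15 (r = 0.90). The best match was 0.90 or 0.91 for Slc12a2 (Aadat), Scnn1b (Fam149a), Scnn1g (Mdfic), Kcnk5 (Mirlet7a-1), Gabrp (Fbxo10) and Ano9 (Rarb), and 0.92 for Fxyd3 (Dus1l). These values describe the closest of many genes over few arrays that share their pools.

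Markers of other tissues moved with the genotype. Of 7 measured seminal vesicle genes 3 rose (Svs2, Svs5 and Pate4), and the log2 of the summed intensity of the 7 was 10.60 to 14.13 in APT121, 13.95 in wild type array 6 and 6.55 to 7.56 in the other 7 wild type arrays. Svs1, Svs3a and Svs6 were high in wild type array 6 (5.86 to 6.96) and at most 4.28 in all other arrays, APT121 included. In wild type array 6, Slc12a2 read 8.25, Lrrc26 6.60, Scnn1a 4.96, Gabrp 4.89 and Kcnk5 4.39, each below its APT121 values. Array 6 was the highest wild type array for Slc12a2, Lrrc26 and Ano9. In APT121 array 1, whose seminal vesicle sum was the lowest of the group (10.60), Slc12a2 (12.94), Scnn1a (9.98), Lrrc26 (11.89) and Gabrp (9.96) were first or second of the 4. Without wild type array 6 the median difference of the 10 genes was 4.02, and without arrays 5, 6 and 7 it was 4.09. The part of seminal vesicle tissue in the differences was not tested, and wild type array 6 is 1 pool. Arrays 5 and 7 had the highest sums (log2 of summed intensity, here and below) of 7 adipose markers (9.09 and 9.40, against 7.68 to 8.81 in the other wild type arrays and 7.44 to 7.77 in APT121), and all 7 fell.

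**Figure D4:**
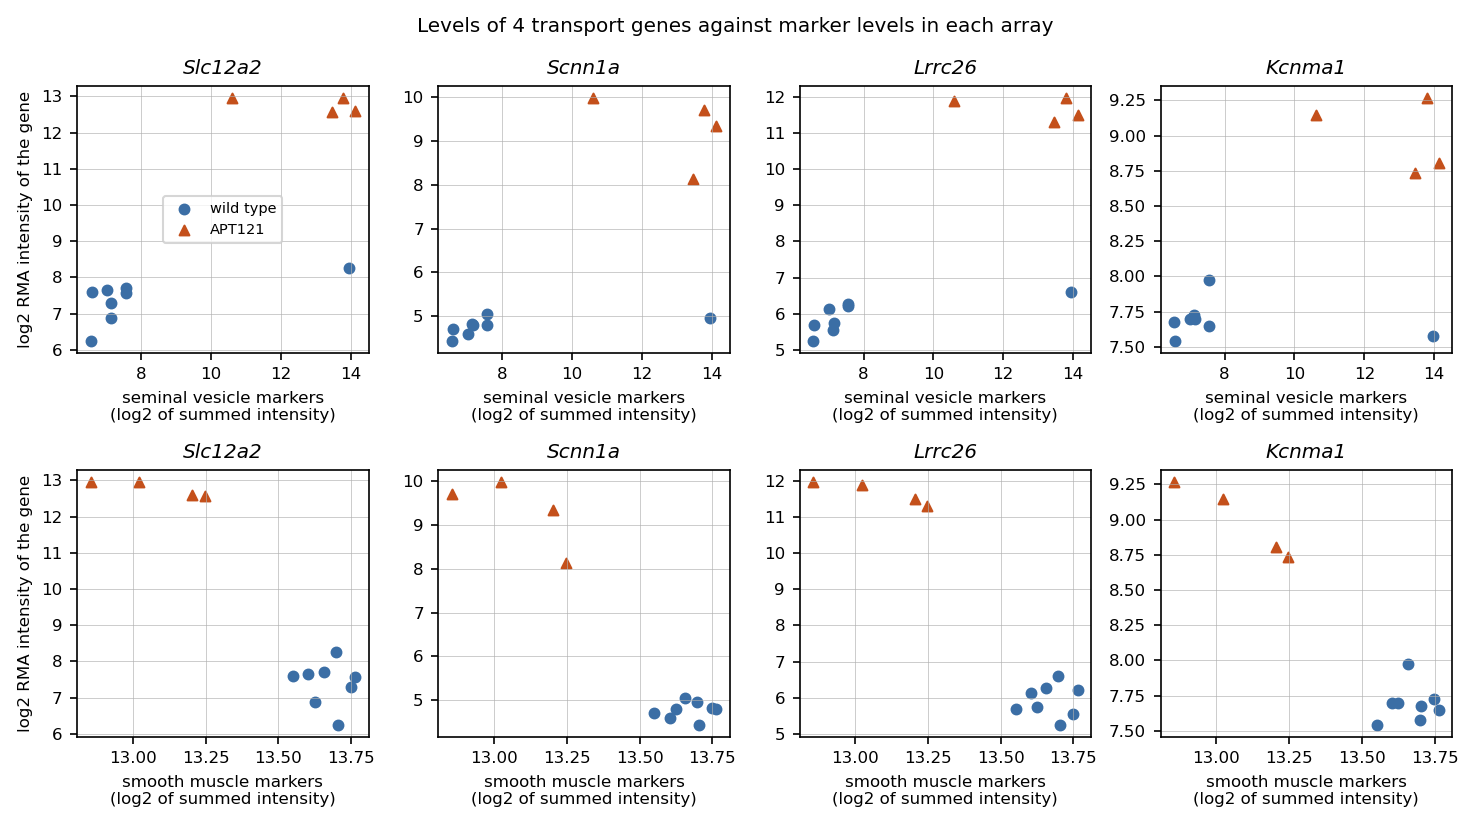
Log2 intensity of Slc12a2, Scnn1a, Lrrc26 and Kcnma1 in each array against the log2 of the summed intensity of 7 seminal vesicle markers (upper row) and 12 smooth muscle markers (lower row), for wild type (circles) and APT121 (triangles). Wild type array 6 is the circle at a seminal vesicle sum of 13.95, and smooth muscle sums are lower in every APT121 array.

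The tissue's own markers were present. Of 9 measured luminal epithelium markers 7 rose, among them Krt8 (1.00 ± 0.08), and 1 fell, Hoxb13 (-0.57 ± 0.07). The sum of the 9 was 13.42 to 13.64 in wild type and 14.26 to 14.32 in APT121. This sum does not measure the share of the cells that hold the transcripts of the set. Basal markers fell for 8 of 10 (Krt5 by 1.29 on the log2 scale) and rose for 1 (Itgb4, by 1.43 ± 0.10). Their sums were 10.07 to 10.31 in wild type and 9.74 to 9.89 in APT121. Smooth muscle markers fell for 11 of 12 and 0 rose, with sums of 13.55 to 13.76 in wild type and 12.85 to 13.25 in APT121 (Acta2 -0.39 ± 0.08, Myh11 -0.51 ± 0.08). Kcnma1, which smooth muscle also expresses, was higher in the APT121 arrays, in which these markers were lower. Over the 8 wild type arrays its r with the mean of these markers was 0.29 (exact permutation p = 0.517). Fibroblast markers fell for 9 of 10 and endothelial markers for 8 of 10, myeloid markers rose for 9 of 10, and lymphocyte markers rose for 4 of 9 and fell for 1. Nerve markers rose for 2 of 5 and fell for 1, and neuroendocrine markers fell for 4 of 7 and 0 rose. The part of these shifts in the differences above was not tested.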

How the data were processed

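Total RNA of the anterior prostate, pooled from 2 mice per sample, was hybridised to Affymetrix Mouse Gene 1.0 ST arrays, per the design text of the series. The deposited values are intensities on a linear scale that the authors made by RMA, per the submitters' processing notes; neither the software version nor the genome build is given in the sources used here. Array medians lay between 32.1 and 33.7 and highest values between 18323 and 20612, and 0 values were missing. Detection calls were not used. Precision is limited by having 12 arrays.

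Values were put on the log2 scale here. The platform annotation pairs 21780 of the 28815 transcript clusters with 1 gene symbol, 1605 with several and 5430 with none, and the last 2 kinds were left out. For 998 genes with more than 1 cluster the one with the highest mean was used, which left 19935 genes, with no filter on low values. The APT121 minus wild type contrast was fitted in R 4.3.3 by limma 3.58.1 (lmFit, eBayes, genotype as the only term, two-sided), with Benjamini-Hochberg adjustment over all genes at 0.05. This fit was tested on simulated data. SAM, named in the design text, was not run here. Each replicate is a pool, so the p-values rest on how pools vary. Correlations were tested by exact permutation of pairings in Python (numpy 2.4.6).

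The 10 genes, the lists (10 transport lists with 141 of 154 genes measured, 11 marker lists), the naming rule and the alternatives were chosen with earlier results of these data known. Genes not measured were not analysed here. The rule named the 10 genes, up to 3 called genes per transport list by absolute difference, a set of partner and marker genes, and the 2 closest genes by deviation. Hsd11b2, Usp2, Nr3c2 and the seminal vesicle genes were named after their values were seen. Same-numbered samples were checked for pairing by correlating deviations from the group means (-0.03 to 0.07 over 4 numbers), which did not pair them. Alternatives were centring, repeated quantile normalisation, filters on low values, averaging the clusters of a gene, eBayes options, weighted arrays, a replicate block, a 1.5-fold minimum and leaving out arrays.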

Additional observations from a re-analysis of the deposited data

Results flagged for a closer look

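In 126 groups of values checked for a sample far from the others, 7 were found, where chance gives about 6.3 (5% of groups). Kcnma1 read 7.98 in wild type array 2, with the next at 7.73. Its further cluster read 3.32 in wild type array 8, with the next at 5.32. The log2 of the summed intensity of the seminal vesicle markers was 13.95 in wild type array 6, with the next wild type array at 7.56. In the transport lists, 1 wild type array was high for each of 4 genes: Slc26a4 in array 6 (3.94, next 3.62), Gabra3 in array 7 (4.83, next 4.34), Kcne3 in array 2 (4.61, next 4.28) and Cftr in array 7 (3.51, next 3.10).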

How the results depend on the processing

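The 10 genes kept their direction under all alternatives run, and 9 were called higher in each of the 20 alternatives that tested all 10; without the lowest 50% of genes Scnn1b and Scnn1g were not tested. Their median difference ran from 3.93 to 4.09. The differences moved by less than the spread between replicates in 207 of 208 comparisons, the exception being Kcnma1 with the mean of its clusters (1.89). Over all genes the calls were 4540 higher and 5987 lower; a 1.5-fold minimum left 2288 and 1264, and without the lowest 50% of genes 3770 were higher and 3326 lower, so that most calls were then higher. Leaving out 1 array gave 4150 to 4523 higher and 4829 to 5984 lower. Of the transport lists, 34 genes were higher and 44 lower, 25 and 19 without the lowest 50% of genes, and 29 were lower with replicate number as a block, which pairs nothing here; 1 array left out gave 29 to 35 higher and 35 to 45 lower. With the replicate block the 10 genes had a median of 4.07, and Kcnk13 (adjusted p = 0.0680), Kcne3 (0.0862), Kcnj15 (0.0699), Kcnmb4 (0.175) and Atp1b1 (0.102) lost their calls. Repeated quantile normalisation turned Kcnmb2 (0.0164) and Lrrc55 (0.0743), neither called, and gave Prss8 a call (-0.16, adjusted p = 0.0424). Leaving out 1 array gave Lrrc55 -0.0794 to 0.0187 (above 0 without APT121 array 2) and Prss8 -0.116 to 0.00130 (above 0 without APT121 array 3). With the mean of clusters, Kcnma1 correlated with Kcnmb1 at -0.0676 and with smooth muscle markers at -0.261; with 1 wild type array left out, Lrrc26 and Kcnma1 ran from -0.39 to 0.41 and Scnn1a and Scnn1g from -0.46 to 0.11, and none passed. The cause of these shifts was not tested, except that a filter or minimum leaves fewer genes to call.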
